A study of Bos taurus with 9 samples.

Results

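Granulosa cells of preovulatory follicles were compared between 90 and 120 days after calving on 3 of the 9 arrays of the series. These 3 arrays were chosen by their titles, and each carried 90-day RNA labelled with the red dye Cy5 and 120-day RNA labelled with the green dye Cy3. The other 6 arrays carried RNA of 60 days (3 arrays) or 30 days (3 arrays) against 120 days, and entered the model to estimate the spread. The cows were Holstein-Friesian, a dairy breed, and the cells were aspirated from dominant follicles by ovum pick-up 42 hours after an injection of prostaglandin F2 alpha, at every day alike. The cells were spun out of follicular fluid and washed, with no mention in the labels of sorting them by type. The labels describe the 3 samples of each day as biological replicates, with 1 replicate per array. The labels do not say whether a replicate was 1 cow or a pool, or whether cows were sampled on several days.

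Granulosa cells line the follicle, surround the oocyte and convert androgen from the theca into oestradiol with the enzyme aromatase. Under follicle-stimulating hormone they also secrete inhibin, activin and follistatin, and after the luteinising hormone surge they become luteal cells that make progesterone. In dairy cows the first months after calving combine high milk yield, mobilisation of body fat and the return to fertility, and the labels name 120 days as the reference for the earlier days. The ratios thus ask what set the cells of an earlier day apart from the cells of 120 days.

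On the 90-day arrays the median spot signal ran from 152.4 to 450.3 for the 90-day RNA and from 258.1 to 368.7 for the 120-day RNA, in units of raw scanner intensity. Between 61.7% and 75.0% of probes lay above the negative control spots for the 90-day RNA, against 67.4% to 75.7% for the 120-day RNA. Values below are log2 ratios of 90-day over 120-day signal after normalisation, so that 1 stands for 2-fold higher at 90 days. The 9 arrays were grouped by the correlation of their 120-day signals into 3 clusters, a number that was set and not found. Each cluster held 1 array of every day. The labels do not say which 120-day RNA an array carried, so these clusters rest on the signals alone. Pearson's r of the 120-day signals, over probes, ran from 0.966 to 0.991 within clusters and from 0.881 to 0.956 between them. The clusters were drawn from these same correlations, so the gap between the ranges does not test them. Probes of an array share its library and are not replicates, so these correlations are descriptions. In every ratio against 120 days the dyes ran the same way, and a dye effect of a probe cannot be told apart from the difference between the days.

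The 3 arrays of 90 days shared little of their pattern with each other. Pearson's r of the log2 ratios was 0.064 between replicates 1 and 2, 0.14 between replicates 1 and 3 and -0.11 between replicates 2 and 3. Each of the 3 arrays correlated more strongly with some array of 60 or 30 days, up to r = 0.66 between 90 days replicate 1 and 30 days replicate 2. Both of those arrays lay in the same cluster of 120-day signals. Between 90 days and the other days, r ran from 0.052 to 0.66 for arrays of 1 cluster and from -0.030 to 0.53 across clusters. The 90-day signals alone correlated at 0.77 to 0.92.

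**Figure D1:**
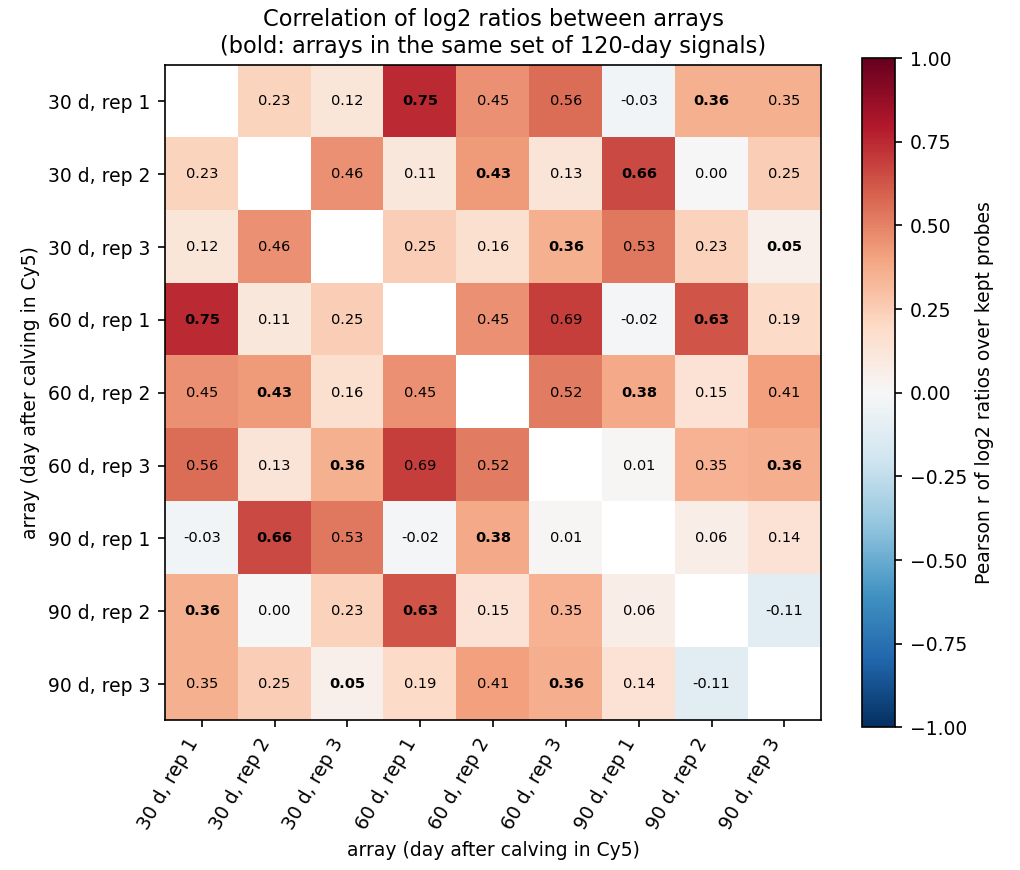
Pearson's r of the log2 ratios between every pair of the 9 arrays, over the probes kept, with rows and columns in the order of days 30, 60 and 90 and with bold values for arrays in the same cluster of 120-day signals. The 3 values among the 90-day arrays, at the lower right, are -0.11, 0.06 and 0.14, and the 90-day arrays have higher values with several arrays of other days.

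Replicate 1 of 90 days stood apart from replicates 2 and 3 of that day by its cell type markers. Its granulosa markers had a median log2 ratio of -1.35, against 0.43 and 0.24 on replicates 2 and 3, while all 14281 genes had medians of -0.01, 0.00 and -0.04. Its macrophage and monocyte markers had a median of 2.08, against 0.67 on replicate 2 and 0.20 on replicate 3. This profile was not particular to 90 days. On replicates 2 and 3 of 30 days the granulosa medians were -1.67 and -0.64 and the macrophage medians 2.58 and 2.01. On replicate 1 of 30 days they were 0.39 and -1.23. Replicate 1 of 90 days and replicates 2 and 3 of 30 days were the 3 arrays with macrophage medians above 1. The labelled cell type was detected on each array: 13, 15 and 13 of the 15 measured granulosa markers lay above background in the 90-day RNA of replicates 1 to 3, and 13, 13 and 12 in the 120-day RNA. The summed signal of these markers was 28227, 222217 and 152609 in the 90-day RNA, against 144678, 91678 and 127063 in the 120-day RNA of the same arrays. In these bulk samples fewer cells of a type and less RNA per cell cannot be told apart.

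The day named for replicate 3 also had a second reading. The authors' deposited value table holds 1 column per array, and its 90-day columns did not follow the array files they are named for (r = 0.079, -0.40 and 0.16). The column of replicate 1 correlated with the array file of replicate 2 at 0.84, and the column of replicate 3 with the array file of replicate 1 at 0.91. The array file of replicate 3, however, correlated best with a column named for 60 days, at 0.89. Several columns of the other days had the same problem. The array files of 60 days replicates 1 and 2 correlated best with columns named for 30 days, at 0.930 and 0.932. That of 60 days replicate 3 had its strongest correlation with its own column, but with the sign turned (r = -0.76), and the direction of the columns is unknown. The array file of 30 days replicate 1 correlated best with its own column, at 0.72, but that column followed 60 days replicate 1 more closely. The day of an array is therefore in doubt at 60 and 30 days too, and with it each comparison of 90 days with those days. Results below take the array files as named, and values are given per array.

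A single gene passed the test against 120 days at an adjusted p of 0.05, and it rose. PLIN3 encodes perilipin 3, a protein that coats newly forming lipid droplets and also takes part in the sorting of mannose 6-phosphate receptors. Its log2 ratio was 2.22, 2.02 and 1.84 on replicates 1, 2 and 3 of 90 days, a mean of 2.02 ± 0.13 (SE, n = 3 arrays) or 4.07-fold (limma with Benjamini-Hochberg adjustment, adjusted p = 0.0217). Its normalised signal was 2544, 1796 and 1812 in the 90-day RNA, against 547, 444 and 507 in the 120-day RNA. The lowest 90-day signal was more than 3 times the highest 120-day signal, and both RNAs lay above background on all 3 arrays. This was 1 of 14281 genes (0.007%) and 1 of 38823 probes (0.00258%), and the gene was read by a single probe.

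PLIN3 was also above 0 on the arrays of the other days, at 1.30, 0.69 and 0.81 for 60 days and 1.00, 0.72 and 0.93 for 30 days. The 3 values of 90 days lay above these 6, as they did for 291 of 14281 genes (2.04%). The difference was 1.09 ± 0.18 between 90 and 60 days (adjusted p = 0.22) and 1.14 ± 0.18 between 90 and 30 days (adjusted p = 0.542), so that neither passed. The call against 120 days depended on single arrays. Its adjusted p was 0.366, 0.066 and 0.12 without replicates 1, 2 and 3 of 90 days, with log2 ratios of 1.93, 2.03 and 2.12. Leaving out an array of another day gave 0.0112 without 60 days replicate 1, 0.0596 and 0.124 without 60 days replicates 2 and 3, and 0.113, 0.0539 and 0.0633 without 30 days replicates 1, 2 and 3.

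At an unadjusted p under 0.05, without adjustment for the number of genes, 861 genes were higher at 90 days (6.03% of all) and 775 were lower (5.43%). Log2 ratios were above 0 on all 3 arrays for 2220 genes (15.5%) and below 0 on all 3 for 2508 genes (17.6%). The median SE of a gene was 0.176.

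The other 11 genes named by the smallest p had adjusted p values of 0.139 to 0.147 and did not pass. Among those with higher values, H2AFJ (now H2AJ), a variant of histone H2A, had log2 ratios of 1.91, 1.79 and 1.51, a mean of 1.74 ± 0.18. COMMD4, a COMM domain protein, had 1.76, 1.00 and 1.19, and RNF220, a ubiquitin ligase, had 1.24, 1.02 and 0.87. For these 3 genes, picked for their small p, the 90-day values lay above those of 60 and 30 days, where the highest were 0.87 for H2AFJ, 0.60 for COMMD4 and 0.47 for RNF220. CCDC12, a coiled-coil protein linked to the spliceosome, had 0.89, 1.00 and 0.79, a mean of 0.90 ± 0.09, and also lay above the other days. The second probe of CCDC12 had a mean near 0, at 0.04. ZNF212, a zinc finger protein, had 0.65, 0.65 and 0.92 and overlapped the 60-day arrays.

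Among the lower values, TUBA4A, an alpha-tubulin, had log2 ratios of -1.84, -1.36 and -1.81, a mean of -1.67 ± 0.19. Its signal was 8650, 2891 and 3218 in the 90-day RNA, against 31041, 7443 and 11264 in the 120-day RNA. TUBA4A was also below 0 on the 6 arrays of 60 and 30 days, so that the 120-day signal was the higher one on each of the 9 arrays. With the dyes the same way on all 9, a dye effect of its probe cannot be told apart from a higher RNA level. The same held for MOS, the kinase that holds mature oocytes in meiotic arrest, which had -0.70, -0.91 and -0.83 at 90 days and values from -1.27 to -0.53 on the other 6 arrays. Of 3 probes for MOS, 2 shared this sign. NAA35, a subunit of an N-terminal acetyltransferase, had -0.76, -0.86 and -0.79. The FERM domain gene FRMD1 had -0.55, -0.44 and -0.58, and LOC100297240 had -0.56, -0.42 and -0.54. LRP4, a receptor of the low-density lipoprotein receptor family, was not well above background on any array in the 90-day RNA and on 2 of 3 in the 120-day RNA, so that its ratios of -0.45, -0.50 and -0.60 compare mostly undetected signals.

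**Figure D2:**
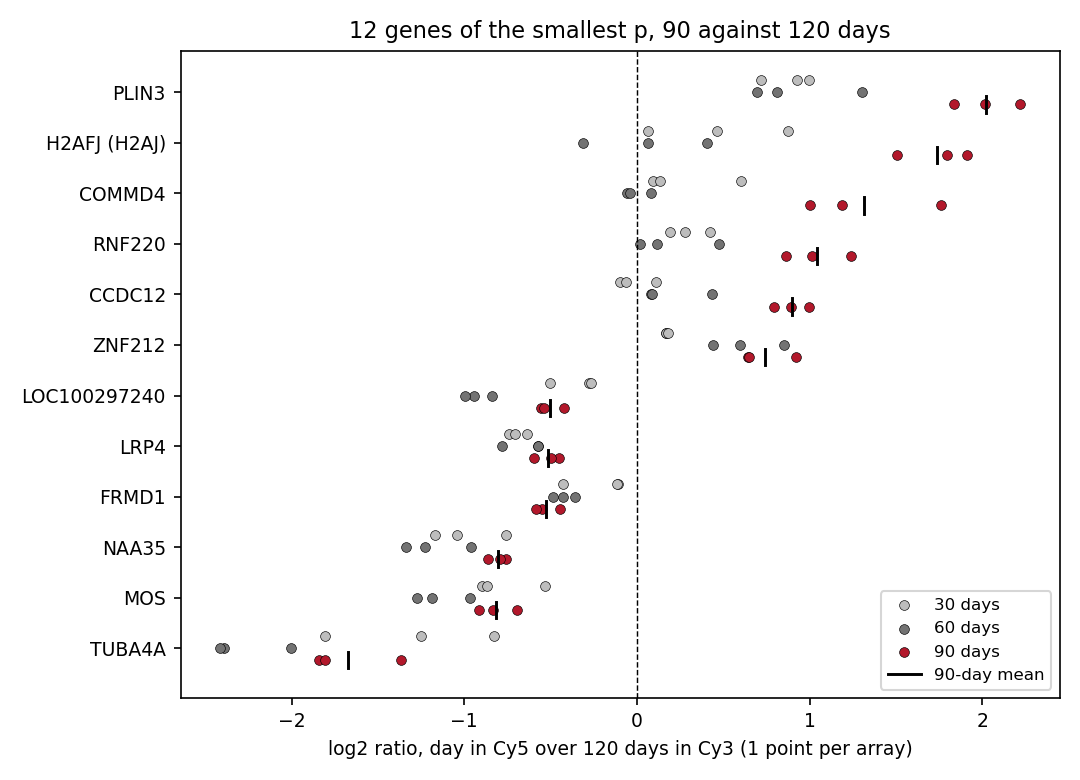
Log2 ratios over 120 days of the 12 genes with the smallest p values, 1 point per array, with days 30, 60 and 90 as rows of points from the top within each gene and a bar at the 90-day mean. PLIN3, H2AFJ, COMMD4, RNF220 and CCDC12 have their 3 points of 90 days to the right of the other days, whereas the 90-day points of most genes below 0 overlap those of 30 days and lie right of or among those of 60 days.

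Apart from the test, 21 genes (0.147%) were at least 2-fold higher and 14 genes (0.098%) at least 2-fold lower on all 3 arrays of 90 days. They were picked out after their values were seen, and only PLIN3 among them passed. RPS10, a protein of the small ribosomal subunit, had log2 ratios of 2.54, 1.78 and 2.31 and a mean of 2.21 ± 0.30 (adjusted p = 0.147). Its signal was 31725, 20765 and 36763 in the 90-day RNA, against 5438, 6052 and 7422 in the 120-day RNA. On the arrays of 60 and 30 days RPS10 lay between -1.37 and 0.23, well below the 90-day values. It was read by 1 probe, and closely similar copies of ribosomal protein genes may share its signal.

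Other genes of the 21 are given by their roles, which were not tested as themes. ATP5D (now ATP5F1D), a subunit of ATP synthase, had log2 ratios of 2.23, 1.12 and 2.22 (mean 1.85 ± 0.23, adjusted p = 0.139). SLC25A6, an ADP/ATP carrier, had 2.44, 1.79 and 1.49, and SAMM50, which inserts proteins into the outer mitochondrial membrane, had 1.17, 2.33 and 1.60. Each of these 3 genes reached 2-fold on every 90-day array, with adjusted p from 0.139 to 0.335. SIL1, a nucleotide exchange factor of the endoplasmic reticulum chaperone BiP, had 1.89, 1.29 and 1.95 at 90 days, against 1.44, 1.16 and 0.66 at 60 days and -0.41 to 0.36 at 30 days, so that the days 90 and 60 overlapped. The second probe of SIL1 had the other sign, at -0.13. COPE, a subunit of the coatomer that coats vesicles returning from the Golgi, had 1.33, 2.31 and 1.52, with the same sign for its 4 probes. WBSCR22 (now BUD23), a methyltransferase of ribosomal RNA, had 1.33, 1.06 and 1.37, also with 4 probes of 1 sign. MAFG, a small Maf transcription factor, had 2.84, 1.61 and 1.60, but also 0.92 to 2.08 at the earlier days.

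The remaining genes of at least 2-fold had adjusted p values up to 0.618. The fitted spread was wide for some of the higher ones: APOA1, the main protein of high-density lipoprotein, had 2.45, 1.46 and 2.17 at 90 days with an SE of 1.04, and C1QB of complement had 1.57, 2.69 and 1.94 with an SE of 0.99. Among the 14 lower genes, NTS, the precursor of neurotensin, had log2 ratios of -3.39, -1.94 and -2.62 (mean -2.65 ± 0.84). Its signal was 886, 206 and 1758 in the 90-day RNA, against 9267, 789 and 10837 in the 120-day RNA. CLCA1, a secreted regulator of chloride channels, had -2.38, -2.09 and -2.30, but ran from -6.02 to 2.96 on the arrays of the other days. LTF, the iron-binding lactoferrin of secretions and neutrophils, had -2.12, -1.09 and -3.24. MS4A1, the B-cell antigen CD20, had -1.26, -1.97 and -1.40. GSTA1, a glutathione transferase, had -2.91, -1.81 and -1.24, and CLDN11, a tight junction protein, had -1.14, -1.80 and -2.37. These genes were low at 90 days on each array, yet with SEs of 0.49 to 1.58 none passed. NTS, CLCA1, GSTA1 and CLDN11 were above background on 2 of 3 arrays in the 90-day RNA and on 3 of 3 in the 120-day RNA. Not each of their ratios therefore rests on a detected 90-day signal.

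**Figure D3:**
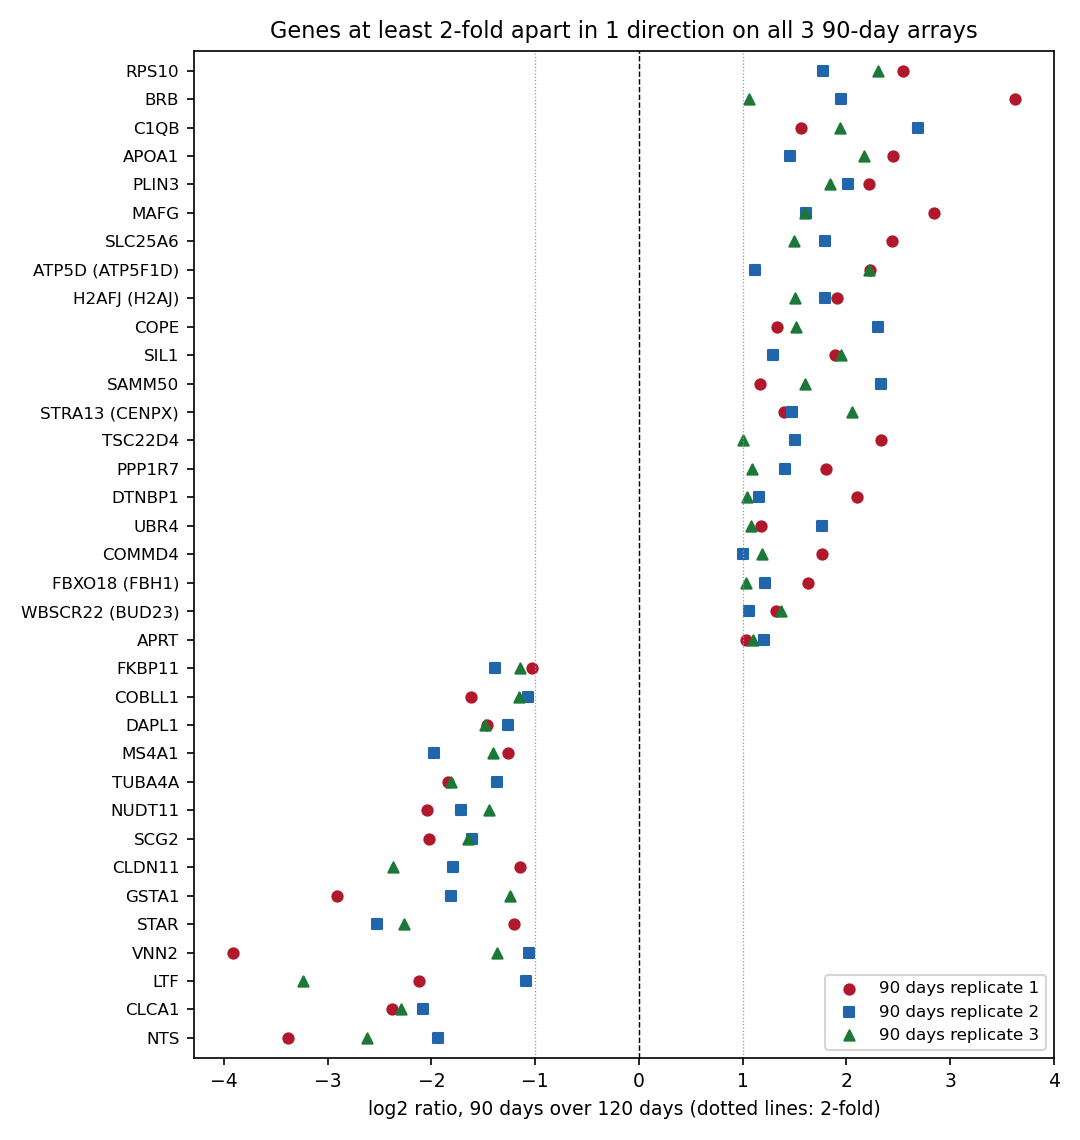
Log2 ratios of 90 over 120 days on each of the 3 arrays for the 35 genes that differed at least 2-fold in 1 direction on all 3, with dotted lines at 2-fold. RPS10 and PLIN3 have 3 points within 1 unit of each other near the top, whereas VNN2, LTF and BRB have points more than 2 units apart.

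Steroid synthesis was measured by 22 genes, of which 0 passed the test in either direction (limma). At an unadjusted p under 0.05, 3 were higher and 3 lower, and the list median was -0.10, against -0.01 for all genes. Its array medians were -0.06, -0.01 and -0.15. STAR, the carrier that brings cholesterol into the mitochondrion for the first step of steroid synthesis, had the lowest mean of the list. Its log2 ratios were -1.20, -2.53 and -2.27 (SE of the fit 0.70, adjusted p = 0.371), and its 3 probes shared this sign. The signal of STAR was 2230, 1921 and 2257 in the 90-day RNA, against 5136, 11070 and 10871 in the 120-day RNA. The 90-day levels were close to one another and lay below the lowest 120-day level. On the other arrays STAR was also below 0, from -3.96 to -0.15.

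The enzymes downstream of STAR went different ways on the 3 arrays. CYP11A1, which makes pregnenolone, had log2 ratios of -2.15, 0.98 and -0.15. HSD3B1, which makes progesterone from it, had -1.20, 0.33 and 1.68. CYP19A1, the aromatase that makes oestradiol, had -3.96, 1.72 and 0.74, the widest range of the 3, and a mean of -0.50 ± 1.16 (adjusted p = 0.882). Of its 3 probes, 1 shared the sign of that mean. Aromatase signal was 260, 34717 and 9546 in the 90-day RNA, against 4043, 10519 and 5708 in the 120-day RNA, so that replicate 1 lay far below the other 2 arrays. HSD17B1, which makes oestradiol from oestrone, had -0.06, 0.36 and 1.41.

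Genes with less spread in this list were HSD3B7, an enzyme of bile acid synthesis, at 0.89, 1.24 and 0.60 (mean 0.91 ± 0.26), and POR, the electron donor of the cytochrome P450 enzymes, at 0.33, 0.28 and 0.73. NR5A1, the steroidogenic factor that binds the promoters of these genes, had -0.07, -0.16 and -0.48 (mean -0.24 ± 0.09). HSD17B10, a mitochondrial dehydrogenase, had -0.92, -0.29 and -0.40, with 3 of 3 probes of that sign. Their adjusted p values ran from 0.316 to 0.402.

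Cholesterol synthesis, which supplies STAR, had 22 measured genes, 0 of them past the threshold, with 3 higher and 2 lower at an unadjusted p under 0.05. The list median was -0.14, with array medians of -0.46, 0.16 and 0.16. MVD and DHCR7, which act early and last in the pathway, had ratios above 0 on each array: 0.40, 0.18 and 0.52 for MVD and 0.49, 0.65 and 0.82 for DHCR7. CYP51A1, the lanosterol demethylase, had -2.90, -0.08 and -0.11, so that its mean of -1.03 came from replicate 1. SREBF2, the transcription factor of the pathway, had -0.07, -0.18 and 1.43, and its 3 probes differed in sign.

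Hormones and receptors of the dominant follicle were measured by 25 genes. None passed, 1 was higher and 0 lower at an unadjusted p under 0.05, and the list median was -0.04, with array medians of -0.51, 0.50 and 0.07. Under median centring without loess the list median was 0.02. INHA and INHBA, the subunits of inhibin A, had the same order over the arrays, at -2.82, 2.07 and 0.24 for INHA and -2.18, 1.90 and 0.13 for INHBA. FST, follistatin, which binds activin, had -3.02, 2.97 and 0.90. The 3 genes were low on replicate 1, high on replicate 2 and nearer 0 on replicate 3, and their means were -0.17 ± 1.20, -0.05 ± 1.05 and 0.28 ± 1.27. INHA was saturated on 2 of 3 arrays in the 90-day RNA, and INHBA on 1 of 3 in each RNA. FSHR, the receptor of follicle-stimulating hormone, followed the same order with -1.35, 0.85 and 0.46, as did AMH, anti-Müllerian hormone, with -0.49, 1.26 and 0.52.

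The gene of this list with the smallest p was NR3C1, the glucocorticoid receptor. Its log2 ratio was 1.86, 0.87 and 2.19 (mean 1.64 ± 0.41, adjusted p = 0.309), with signals of 3065, 836 and 2495 in the 90-day RNA, against 845, 458 and 545 in the 120-day RNA. NR3C1 was above 0 on the 6 arrays of 60 and 30 days too, from 1.48 to 3.39. BMPR2, a receptor of bone morphogenetic proteins, had -0.81, -0.08 and -0.48. INSR, the insulin receptor, had 0.31, -0.06 and -0.36. LHCGR, the receptor of luteinising hormone, was above background on 2 of 3 arrays in the 90-day RNA and on 0 of 3 in the 120-day RNA, with log2 ratios of 0.02, 1.21 and 0.07 (adjusted p = 0.638). ESR2, oestrogen receptor beta, was above background on 3 of 3 arrays in the 90-day RNA and on 0 of 3 in the 120-day RNA, with 0.05, 0.21 and 0.24 (adjusted p = 0.452). FOXL2, a transcription factor of granulosa identity, was above background on 1 of 3 arrays in the 90-day RNA and on 0 of 3 in the 120-day RNA, with 0.03, 0.17 and 0.08. AMHR2, the receptor of anti-Müllerian hormone, had -0.15, 0.00 and -0.06 and was above background on 1 of 3 arrays in the 90-day RNA and 2 of 3 in the 120-day RNA.

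**Figure D4:**
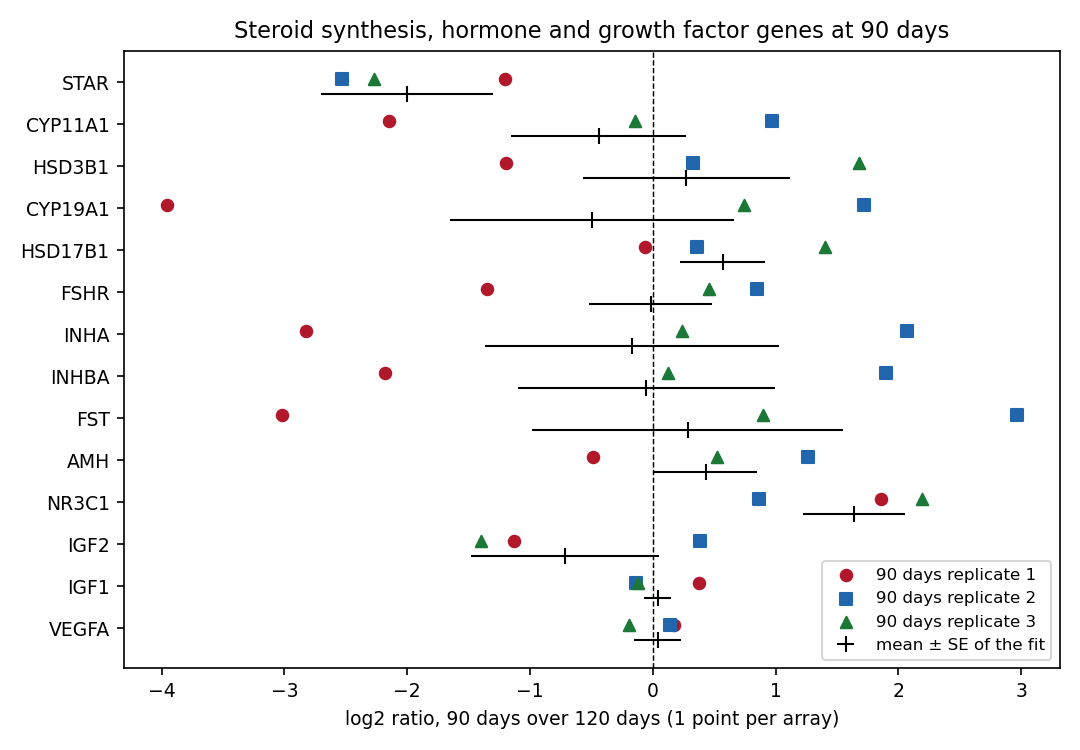
Log2 ratios of 90 over 120 days for 14 genes of steroid synthesis, follicle hormones and growth factors, with 1 symbol per array and the mean ± SE of the fit below. Replicate 1 is the leftmost symbol for CYP11A1, HSD3B1, CYP19A1, FSHR, INHA, INHBA, FST and AMH, and STAR is left of 0 on the 3 arrays.

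The 15 granulosa markers include FSHR, CYP19A1, AMH, INHA, INHBA and FST, so that their pattern is no separate observation from the one above. Their median was -0.05 over the 3 arrays and 0.08 under median centring without loess. None passed, 0 were higher and 1 lower at an unadjusted p under 0.05. SERPINE2, a serine protease inhibitor abundant in granulosa cells, had -3.04, 0.23 and 0.13, but was saturated on 2 of 3 arrays in the 90-day RNA and 1 of 3 in the 120-day RNA, so that its ratios near 0 are not exact. Without replicate 1 the list median was 0.65, and 12 of the 35 list medians had another sign without that array. Luteal markers had a median of -0.33 over 11 genes, with 0 passing and 2 lower at an unadjusted p under 0.05. Their array medians were -0.11, 0.02 and -0.26, and without replicate 1 the median was -0.03. Apart from STAR, OXT, the precursor of oxytocin made by luteal cells of ruminants, had -0.14, -0.28 and -0.89 (mean -0.44 ± 0.14, adjusted p = 0.356). In the list of the ovulatory response to luteinising hormone, 0 of 21 genes passed, 0 were higher and 1 lower at an unadjusted p under 0.05, and the median was -0.09. PTX3, which stabilises the cumulus matrix, had -0.94, -1.07 and 0.03, and TNFAIP6 of the same matrix had -0.20, -1.90 and 0.33.

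The insulin-like growth factor system had 16 measured genes, none past the threshold, with 2 higher and 0 lower at an unadjusted p under 0.05 and a median of -0.01. IGFBP4, a binding protein that restrains these growth factors, had log2 ratios of 1.30, 0.60 and 0.25 (mean 0.72 ± 0.23, adjusted p = 0.354). PAPPA2, a protease of binding proteins, had 0.06, 0.11 and 0.37. IGF1 had 0.38, -0.13 and -0.12, IGF2 had -1.13, 0.38 and -1.39, and IGFBP2 had -0.06, -0.04 and 0.00. Of 3 probes for IGF2, 1 had the sign of its mean. Of the 16 angiogenesis genes 0 passed, 1 was higher and 0 lower at an unadjusted p under 0.05. That gene was VEGFB, a vascular growth factor, at 1.80, 0.44 and 0.37. VEGFA had 0.17, 0.14 and -0.19, and its 2 probes differed in sign.

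Genes of energy metabolism differed mostly between arrays. Of 24 genes of glycolysis and glucose uptake, 0 passed and 2 were higher at an unadjusted p under 0.05, with a median of 0.40 and array medians of 1.31, 0.21 and -0.18. Without replicate 1 the median was 0.023. SLC16A3, which exports lactate, had the highest mean of the list, with log2 ratios of 4.38, 1.66 and 0.88 (mean 2.30 ± 0.62, adjusted p = 0.315). Its signal was 17742, 3500 and 2033 in the 90-day RNA, against 855, 1106 and 1108 in the 120-day RNA, and it was at least 2.06 on each of the other 6 arrays. PFKFB3, which makes the activator of phosphofructokinase, had 2.81, 0.17 and 1.38. LDHA, lactate dehydrogenase, had 1.27, -0.08 and -0.41 and so was high on replicate 1 alone. Glycolysis and macrophage medians were both highest on replicate 1 and lowest on replicate 3, and the part of macrophage markers in the glycolysis values was not tested.

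The respiratory chain had 44 measured genes, with 0 past the threshold and 3 higher and 3 lower at an unadjusted p under 0.05. Its median was -0.21, and 0.01 under median centring without loess. COX4 (now COX4I1), a subunit of cytochrome oxidase, had small and even log2 ratios of 0.28, 0.29 and 0.34 (mean 0.30 ± 0.07, adjusted p = 0.305). SDHD, the membrane anchor of succinate dehydrogenase, had -0.88, -0.41 and -0.57, while its second probe had a mean near 0, at -0.04. Of 20 genes of the tricarboxylic acid cycle, 0 passed, 2 were higher and 1 lower at an unadjusted p under 0.05, with a median of -0.18. PDHB, a subunit of pyruvate dehydrogenase, had -1.28, -0.11 and -1.37, and its 2 probes differed in sign. SUCLA2, a succinate-CoA ligase, had 0.24, 0.17 and 0.27.

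Fatty acid oxidation had 23 measured genes and a median of -0.08, with 0 passing and 1 higher at an unadjusted p under 0.05. The array medians of this list were -0.27, 0.07 and -0.08, and without replicate 1 its median was 0.10. SLC25A20, the carnitine carrier, had 0.14, 0.58 and 0.11. In fatty acid synthesis and storage, 1 of 24 genes rose, PLIN3, and 0 fell, with 1 higher and 2 lower at an unadjusted p under 0.05 and a median of -0.13. PLIN2, the perilipin that coats most cytosolic droplets, had values of the other sign, -0.64, -0.46 and -3.15 (mean -1.42 ± 0.52, adjusted p = 0.39). The signal of PLIN2 was 9412, 5202 and 2264 in the 90-day RNA, against 14642, 7172 and 20070 in the 120-day RNA. SCD, which desaturates fatty acids, had -3.85, 0.34 and -1.04.

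Protein synthesis and turnover showed small medians. Of 52 cytosolic ribosomal protein genes, 0 passed and 1, RPS10, was higher at an unadjusted p under 0.05. The list median was 0.05, with 16 genes above 0 on all 3 arrays (30.8% of the list, against 15.5% of all genes). Median centring without loess moved it to 0.39, so the level of this list depended on the normalisation. RPS16 had 0.15, 0.11 and 0.14 but was saturated on 3 of 3 arrays in the 90-day RNA and 1 of 3 in the 120-day RNA, which limits what its ratios show. RPL6 had -0.40, -0.13 and -0.59. The proteasome had 0 of 32 genes past the threshold, 2 higher at an unadjusted p under 0.05, and a median of 0.02. PSMC1, an ATPase of its cap, had 2.53, 0.37 and 1.02, and PSMD4, a ubiquitin receptor of the cap, had 1.28, 1.46 and 0.22, with 1 of 2 probes of that sign.

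Stress genes gave similar counts. For the unfolded protein response and chaperones, 0 of 26 genes passed, 2 were higher and 1 lower at an unadjusted p under 0.05, and the median was -0.01, or 0.12 under median centring without loess. PDIA4, a protein disulphide isomerase, had log2 ratios of 0.80, 0.51 and 0.30 (mean 0.53 ± 0.09, adjusted p = 0.23), and ERN1, the stress sensor IRE1, had -0.18, -0.11 and -0.21. Among 28 antioxidant genes 0 passed, 2 were higher and 4 lower at an unadjusted p under 0.05, 9 were below 0 on all 3 arrays (32.1%, against 17.6% of all genes), and the median was -0.19. KEAP1, which marks the antioxidant factor NRF2 for destruction, had 1.58, 0.56 and 0.64 (mean 0.93 ± 0.21), and PRDX4 had 1.14, 0.62 and 0.50. SOD3, the secreted superoxide dismutase, was not well above background on any array in the 90-day RNA and was above it on 3 of 3 in the 120-day RNA, with ratios of -0.11, -0.18 and -0.38.

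Of 20 cell death genes 0 passed, and none had an unadjusted p under 0.05. BCL2L1, an inhibitor of cell death, had 0.84, -0.15 and 0.11. Immediate early genes, which respond within minutes to stimuli, had 0 of 27 past the threshold, 1 higher at an unadjusted p under 0.05 and a median of -0.25. JUN had 1.27, 0.69 and 0.02, and SGK1, a kinase induced by glucocorticoids and serum, had -1.04, -0.67 and -1.33. In the cell cycle and mitosis list 0 of 42 genes passed, with 3 higher and 1 lower at an unadjusted p under 0.05 and array medians of 0.61, 0.19 and -0.31. TOP2A, which untangles replicated DNA, had 0.41, 0.53 and 0.16, and BUB1B of the spindle checkpoint had 0.89, 0.67 and 0.21. PCNA, the clamp of DNA polymerase, had 0.85, -0.31 and -0.64, with 2 of 4 probes sharing the sign of its mean.

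Macrophage and monocyte markers had a median of 1.00 over 16 genes, of which 0 passed and 1 was higher at an unadjusted p under 0.05. Without replicate 1 the median was 0.40, below that of the granulosa markers. Of them, 8 were above 0 on all 3 arrays, against 15.5% of all genes: C1QA, C1QB, C1QC, ITGAM, MSR1, FCER1G, CD163 and CD68, named here after their values were seen. C1QA, C1QB and C1QC form the recognition molecule of the classical complement pathway and are made by macrophages. Their log2 ratios were 2.05, 1.94 and 0.53 for C1QA, 1.57, 2.69 and 1.94 for C1QB and 1.07, 2.09 and 0.61 for C1QC, with adjusted p from 0.423 to 0.473. LYZ, lysozyme, went the other way, at -0.87, -1.76 and -1.42. The summed signal of the 16 markers was 147956, 73783 and 42139 in the 90-day RNA, against 31824, 56434 and 44709 in the 120-day RNA, so that it was lower in the 90-day RNA on replicate 3.

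The complement list, which shares the C1q genes, had 0 of 23 genes past the threshold, 4 higher and 0 lower at an unadjusted p under 0.05 and a median of -0.08. Its 8 genes above 0 on all 3 arrays were 34.8% of the list, against 15.5% of all genes. CFD, factor D, the protease that starts the alternative pathway, had log2 ratios of 1.22, 1.32 and 0.56 (mean 1.03 ± 0.21, adjusted p = 0.299). Its signal was 15817, 5157 and 5743 in the 90-day RNA, against 6800, 2066 and 3891 in the 120-day RNA. C5AR1, a receptor for the complement fragment C5a, had 0.90, 0.35 and 0.68, with the 120-day RNA above background on 1 of 3 arrays, and CFP, properdin, had 2.76, 1.08 and 0.77.

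Leukocyte and lymphocyte markers differed in direction between the arrays. Pan-leukocyte markers had array medians of 1.85, -0.36 and -0.78, with 0 of 13 passing and 1 higher and 1 lower at an unadjusted p under 0.05. CORO1A, an actin-binding protein of leukocytes, had 4.30, 1.36 and 0.58. Lymphocyte markers had array medians of 1.43, -0.54 and -0.24, with 0 of 19 past the threshold and none at an unadjusted p under 0.05. CD3E, part of the T-cell receptor complex, had 2.07, -0.74 and -0.89, and PRF1, perforin, had 2.11, 0.05 and -0.24. Both lists were high on replicate 1 and below 0 on the other 2 arrays. Neutrophil markers had array medians of -0.05, -0.01 and -0.09 over 11 genes, with 0 passing and none at an unadjusted p under 0.05. MMP9, a gelatinase of leukocytes, had 6.66, -0.16 and -0.52, with a signal of 35500, 264 and 303 in the 90-day RNA, against 352, 295 and 435 in the 120-day RNA.

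Of 18 antigen presentation genes 0 passed, and none had an unadjusted p under 0.05 or 1 sign on all 3 arrays. PSMB8, a subunit of the immunoproteasome, had 2.56, -0.17 and 1.08, and B2M, the light chain of class I molecules, had 0.11, -0.08 and 0.06 and was saturated on 1 of 3 arrays in each RNA. Among 41 chemokines, interleukins and receptors 0 passed and 1 was higher at an unadjusted p under 0.05. That gene was IL6R, the receptor of interleukin 6, at 0.68, 0.57 and 0.36. Interferon response genes leaned the other way: 11 of 32 were below 0 on all 3 arrays (34.4%, against 17.6% of all genes), with 0 passing, 2 higher and 4 lower at an unadjusted p under 0.05 and a median of -0.15. HERC5, the ligase that attaches ISG15 to proteins in human cells, had -1.14, -0.89 and -1.03 (mean -1.02 ± 0.22, adjusted p = 0.305). HERC6 had -0.72, -0.37 and -1.02, IFIT5 had -1.71, -0.42 and -0.91, and ISG12(A) (now IFI27) had -2.29, -0.65 and -1.44. The second probes of IFIT5 and ISG12(A) had means near 0, at -0.02 and -0.001. The list median was also below 0 on the 6 arrays of 60 and 30 days, from -1.32 to -0.05. HERC5, HERC6 and IFIT5 were below 0 on each of those arrays, whereas ISG12(A) had 1.02 on 60 days replicate 1. With the dyes the same way throughout, a dye effect of these probes cannot be told apart from higher RNA levels at 120 days.

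Epithelial markers had a median of -0.66 over 18 genes, with array medians of -1.55, -0.01 and -0.70, and a median of -0.30 without replicate 1. None passed, 0 were higher and 3 lower at an unadjusted p under 0.05, and 8 were below 0 on all 3 arrays (44.4%, against 17.6% of all genes). KRT18 and KRT8, partner keratins of simple epithelia, had -3.40, -0.23 and -2.67 for KRT18 and -2.04, -0.11 and -4.76 for KRT8. Their adjusted p values were 0.364 and 0.385. The signal of KRT18 was 428, 510 and 411 in the 90-day RNA, against 4508, 597 and 2609 in the 120-day RNA. The 90-day level of KRT18 hardly varied, and the ratio of each array followed its 120-day RNA. The summed signal of the 18 markers was 28631, 34660 and 8084 in the 90-day RNA, against 128253, 33422 and 77715 in the 120-day RNA.

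Matrix and stromal genes divided replicate 3 from the other arrays. The matrix and basement membrane list had array medians of 0.27, 0.16 and -0.60, with 0 of 28 genes passing and 0 higher and 1 lower at an unadjusted p under 0.05. FN1, fibronectin, had 1.60, 3.78 and -3.37, and COL3A1, a fibrillar collagen, had 2.31, 1.72 and -4.47. DCN, the proteoglycan decorin, was below 0 on each array, at -1.96, -0.47 and -4.84 (mean -2.42 ± 0.94, adjusted p = 0.406). Theca and stroma markers had a median of -0.09 over 15 genes and endothelial markers one of -0.13 over 11, with 0 passing and 0 higher and 1 lower at an unadjusted p under 0.05 in each list. Without replicate 1 these medians were -0.41 and -0.21. EGFL7, an endothelial matrix protein, had -0.11, -0.19 and -0.64.

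Red blood cell markers had a median of -0.20 over 11 genes and platelet markers one of 0.06 over 8, or -0.02 with median pixel intensity. In neither list did a gene pass, and 1 and 0 were higher and 1 and 1 lower at an unadjusted p under 0.05. HBB, the beta-globin chain, had 0.10, -0.98 and -0.24, and GP9, a subunit of the platelet receptor for von Willebrand factor, had -0.42, -0.39 and -0.78 (mean -0.53 ± 0.09, adjusted p = 0.234). Oocyte and cumulus markers had a median of 0.08 over 15 genes, or -0.04 without background correction, with 0 passing and 1 higher and 1 lower at an unadjusted p under 0.05, the lower one being MOS. ZP4, a zona pellucida protein, was above background on 2 of 3 arrays in the 90-day RNA and on 0 of 3 in the 120-day RNA, with ratios of 0.09, 0.19 and 0.27.

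**Figure D5:**
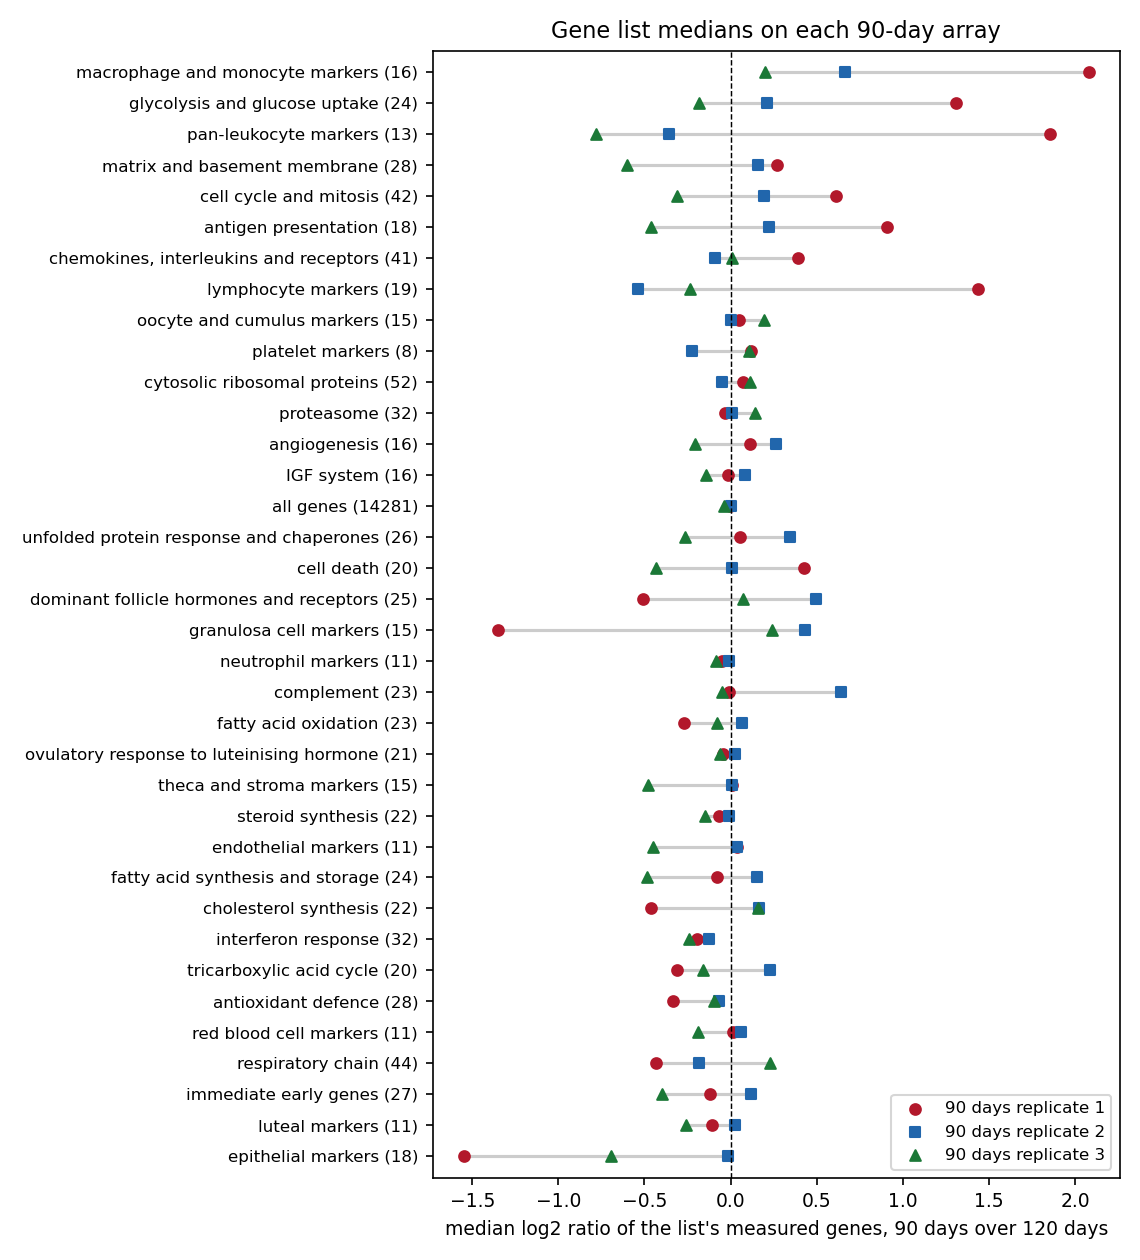
Median log2 ratio of 90 over 120 days of each gene list on each of the 3 arrays, with the number of measured genes in parentheses and lists ordered by the median of their genes' mean ratios. Replicate 1 lies more than 1 unit from both other arrays for granulosa, macrophage, lymphocyte, pan-leukocyte and glycolysis genes, and all genes together lie near 0.

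Between 90 and 60 days, where a constant dye effect cancels, 0 of 14281 genes passed (0%, limma), with 817 higher and 626 lower at 90 days at an unadjusted p under 0.05. The median SE was 0.248, wider than against 120 days. CFD had the smallest p, with log2 ratios to 120 days of 1.22, 1.32 and 0.56 at 90 days, against -3.25, -2.87 and -2.86 at 60 days. The difference was 4.02 ± 0.30 (adjusted p = 0.0619), and the groups did not overlap, as for 1494 genes that lay higher at 90 than at 60 days on all arrays (10.5%). COX4 had 0.28, 0.29 and 0.34 at 90 days, against -0.83, -0.85 and -0.95 at 60 days, a difference of 1.18 ± 0.09 (adjusted p = 0.0619). H2AFJ differed by 1.68 ± 0.25, RPS10 by 2.72 ± 0.43 and COMMD4 by 1.32 ± 0.22, each with an adjusted p of 0.22. Among the always named genes, LHCGR had 0.02, 1.21 and 0.07 at 90 days, against 2.78, 2.08 and 2.70 at 60 days, a difference of -2.09 ± 0.48 (adjusted p = 0.349). AMH had -0.49, 1.26 and 0.52 at 90 days, against 3.08, 2.93 and 2.33 at 60 days, a difference of -2.35 ± 0.59 (adjusted p = 0.399). In LHCGR and AMH the 3 arrays of 90 days lay below the 3 of 60 days, as they did for 918 genes (6.43%).

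The medians of several lists were also far apart between these days. Over all genes the median difference, 90 minus 60 days, was 0.03. Pan-leukocyte markers had 3.28, with array medians of 1.85, -0.36 and -0.78 at 90 days, against -3.97, -1.98 and -3.53 at 60 days. Macrophage markers had 1.94, antigen presentation genes 1.93 and interferon response genes 0.81, while granulosa markers had -1.27. These lists differ in the mix of cell types they mark, and their share in the single-gene differences was not tested.

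Between 90 and 30 days 0 of 14281 genes passed (0%, limma), with 465 higher and 352 lower at an unadjusted p under 0.05. The smallest adjusted p was 0.355, for SDHC, a membrane anchor of succinate dehydrogenase named after its value was seen, whose ratios to 120 days were -0.02, -0.21 and 0.15 at 90 days, against -1.18, -1.42 and -1.11 at 30 days. COX4 differed by 0.73 ± 0.09 (adjusted p = 0.391) and CCDC12 by 0.91 ± 0.12 (adjusted p = 0.403). INHA and INHBA spanned wide ranges on both days: INHA had -2.82, 2.07 and 0.24 at 90 days, against 1.77, -3.37 and -3.69 at 30 days. The comparisons of 90 days with 120, 60 and 30 days share the 3 arrays of 90 days and are not independent of each other.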

How the data were processed

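Two-colour arrays measured RNA of bovine granulosa cells at 30, 60 and 90 days after calving, 3 arrays per day, each against 120-day RNA. RNA was amplified and labelled without enzymes on a bovine Agilent array, per the labels' protocols. The deposited array files give the mean and median pixel intensity of 45220 spots and the local background, neither subtracted nor normalised, per the file headers. A deposited table of processed values was taken as log2 from its range, and no source used here describes how they were made. Their exact scale, centring and direction stay unknown, their column medians ran from -0.021 to 0.026, and they were compared with the arrays and used no further.

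Mean intensities were corrected with normexp (offset 50) and loess-normalised within arrays with limma 3.58.1 (R 4.3.3), control spots having weight 0. A probe stayed in (38823 of 43794) if, on 3 or more arrays, the signal of either dye was over the mean plus 2 SD of the 153 negative controls. A gene was its brightest kept probe. Symbols came from the platform annotation (21790 probes with 1 symbol, 22004 with none), and 938 genes have another current symbol in RefSeq, ARS-UCD2.0. No genome sequence was used. A limma fit with 1 coefficient per day on the 9 arrays (6 residual and 1.35 prior degrees of freedom) tested 90 days against 120 days and against the other days, two-sided, with Benjamini-Hochberg adjustment over all probes and a threshold of 0.05. It was tested on simulated data. Errors are SE of that fit, and p-values measure the spread between these arrays. The number of arrays limits the precision. No fold is given for a probe below background on every array of 1 RNA.

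Genes named were those past the threshold, filled to 6 per direction by the smallest p among genes of 1 sign on the 3 arrays, the 2 brightest and 2 of smallest p of each of 35 lists, and every list member past the threshold, and a set always named (STAR, CYP11A1, CYP19A1, HSD3B1, HSD17B1, FSHR, LHCGR, AMH, AMHR2, INHA, INHBA, FST, FOXL2, ESR2, IGF1, IGF2, IGFBP2 and VEGFA). Against 60 and 30 days the same genes were followed. A microRNA was not named by its host probe. The comparison, the lists and the genes were chosen with earlier results of these data known, so the lists are described by counts and medians without a test. The alternatives changed the background correction, normalisation, filter, variance model, arrays fitted, probe per gene and threshold, or added the replicate number as a block. Added after seeing the data were the 120-day cluster as a block, a threshold for dim probes set by the controls' median and MAD, and a fit without the 3 arrays of macrophage medians above 1.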

Additional observations from a re-analysis of the deposited data

How the results depend on the processing

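Against 120 days, where 1 probe and 1 gene (PLIN3) passed, the count stayed at 1 with array weights, with dim probes kept, with Aquantile scaling and with the MAD-based filter. It was 0 for probes and genes with median pixel intensity, median centring without loess, a trended and robust eBayes, the 90-day arrays alone and without the 3 arrays of macrophage medians above 1. PLIN3 kept a log2 ratio of 1.93 to 2.23 in each of these, with adjusted p from 0.0657 to 0.715. Leaving out 1 array gave 0 to 1 probes and 0 to 1 genes. Deviations from the day means of same-numbered arrays correlated at -0.69 to 0.19 where 1 array was of 90 days. Between 60 and 30 days, whose same-numbered arrays also shared a 120-day cluster, they correlated at 0.34, 0.51 and 0.38. Replicates 1 and 2 of 90 days lay in other clusters than their same-numbered arrays. These values therefore cannot show whether the numbers pair 90 days with another day. With the replicate block 0 probes and 0 genes passed (PLIN3 adjusted p = 0.0619), and between 90 and the other days the count stayed at 0. Without background correction 755 probes (510 higher, 245 lower) and 189 genes (123 higher, 66 lower) passed, among them 21 more of the 180 genes followed, such as H2AFJ (adjusted p = 0.0251), RPS10 (0.0299) and TUBA4A (0.0252). An unadjusted p under 0.05 with at least 1.5-fold gave 1041 probes (607 higher, 434 lower) and 585 genes (326 higher, 259 lower). With the mean of a gene's probes 2 genes passed, PLIN3 and WBSCR22. The 120-day cluster as a block, chosen after seeing the data, gave 168 probes (34 higher, 134 lower) and 94 genes (18 higher, 76 lower). It takes the spread between the clusters out of the error. Between 90 and 60 days the count was 0, but 1 with median centring (LOC784385), 1 with array weights (CFD, adjusted p = 0.0378), 1 with the 120-day block (UBD) and 756 at an unadjusted p with 1.5-fold. Between 90 and 30 days it was 0, but 1 with median centring (LOC784385), 453 at an unadjusted p with 1.5-fold, and 0 to 1 when 1 array was left out, the 1 being PHACTR2 without 30 days replicate 1. The cause of these shifts was not tested. Over the 180 named genes and all settings, 3960 values were computed. Only PLIN3 had a call in the main fit, so that the count of 0 reversed calls says little. That call was lost in 14 of the values. In 31 values a gene passed that had not passed in the main fit, and 116 values of genes that did not pass changed sign.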

Other observations

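With the cluster of 120-day signals as a block, chosen after seeing the data, 94 genes passed between 90 and 120 days. The smallest p belonged to ANKRD1, a stress-responsive ankyrin repeat protein, at -3.13 ± 0.07 (limma, adjusted p = 0.00136). Its log2 ratios were -4.43, -0.89 and -4.06 at 90 days, against -5.00, -1.11 and -4.33 at 60 days and -4.58, -0.86 and -4.27 at 30 days, here in the order of the clusters of 90 days replicates 1, 2 and 3. OBP, an odorant-binding protein, had -4.96, 0.01 and -0.02 on the 90-day arrays. On the 2 arrays that share a cluster with replicate 1, 60 days replicate 2 and 30 days replicate 2, OBP was at -5.16 on both, and it lay between -0.09 and -0.06 on the other 4. APOD, apolipoprotein D, had -3.95, -0.08 and -2.73 at 90 days and KRT7, a keratin of simple epithelia, had -3.02, -0.09 and -2.51. KRT17, a keratin of basal and stressed epithelia, had -1.98, -0.12 and -0.10. These genes were named after their values were seen. The clusters were drawn from the 120-day signals, which are also the denominators of the ratios tested. The SE under this block leaves out the spread between the clusters. The p-values and calls under it are therefore no separate support for a difference between the days. The labels do not say which 120-day RNA an array carried. PLIN3 was also among the 94 genes, at 2.02 (adjusted p = 0.0256), as were H2AFJ, COMMD4, RNF220, CCDC12, TUBA4A, NAA35, SAMM50, TSC22D4 and LOC100297240 of the genes named by rule or by size.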
